A study of Drosophila melanogaster with 4 samples.

Results

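Simple and low-complexity repeats are short tandem runs of 1 sequence unit, or stretches rich in 1 or 2 bases, that lie all over the Drosophila melanogaster genome. They were taken as every row of the deposited repeat table whose class was Simple_repeat or Low_complexity, which gave 97061 of 137555 annotated repeat copies. Of these, 86552 were simple repeats and 10509 were low-complexity rows. The counts come from ovary small RNA libraries of 2 groups. Ars2KD ovaries carried a germline knockdown of Ars2, an RNA-binding partner of the nuclear cap-binding complex, by the hairpin Ars2_sh1 (VDRC stock 106344). wKD ovaries had white, an eye pigment gene, knocked down in the germline by the hairpin white_sh (VDRC stock 30033). Each group had 2 libraries, numbered 1 and 2. All 4 were made from total RNA cut from a gel at 19 to 29 nt, and the repeat table counts reads of 24 to 29 nt. Driver, fly age and flies per library are not stated in the sources used, and follicle cells of the ovary lie outside a germline knockdown. The table holds 1 unit, raw counts. CPM below means counts per 1000000 counts of the repeat table in that library.

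PIWI-interacting RNAs, or piRNAs, are small RNAs of the animal gonad that guide PIWI proteins to transposon transcripts. Most come from piRNA clusters made of transposon fragments, and some come from the mRNAs of ordinary genes, above all from their 3' UTRs. Simple repeats evolve by slippage of the DNA polymerase, lie in introns, UTRs, coding exons and intergenic DNA, and include the units of the long satellites near fly centromeres. A small RNA read that overlaps such a repeat is counted there whatever RNA it derives from.

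The units of the 8 simple repeats among the 10 rows of highest mean CPM are shown first, because position and unit together identify these rows. Capitals give 1 repeat unit as the deposited row name has it. Coordinates are dm6 positions, and the sequence of the whole copy was not used here.
lncRNA:CR34335 non-coding exon, chrX:3545812-3545838: GTTTT
RpL3 coding exon, chr3R:11224800-11224841: GCC
lin-28 intron, chr3L:5655925-5655952: ATGA
RpS2 coding exon, chr2L:9897024-9897080: CCACGA
Between genes, chr3L:27901582-27901632: TTGTCT
Myc 3' UTR, chrX:3386487-3386528: TA
Pzl intron, chr3R:3137093-3137150: TCTCG
Annotated transposon insertion RR48323, chr3R:3907534-3907716: CGC

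Simple and low-complexity repeats were 70.6% of the rows of the table but held few of its counts. They took 1126 of 46218 counts in Ars2KD 1 and 4918 of 169124 in Ars2KD 2, against 1623 of 64395 in wKD 1 and 6305 of 323180 in wKD 2. As shares these were 2.44% (exact 95% interval 2.30 to 2.58) and 2.91% (2.83 to 2.99) in Ars2KD, and 2.52% (2.40 to 2.64) and 1.95% (1.90 to 2.0) in wKD. The highest and the lowest share both came from libraries numbered 2, and the groups overlapped. Such intervals and floors cover counting error only, as reads that carry no molecular identifier need not be independent molecules. Per kb of annotated repeat the density was 5.73 and 6.84 CPM per kb in Ars2KD and 5.93 and 4.59 in wKD, against 37.5 and 37.3 CPM per kb in Ars2KD and 37.5 and 37.7 in wKD over the 40492 rows of named transposon and satellite families.

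The overlap of counted rows was small for any pair of libraries. At least 1 count was found in 168 rows of both libraries numbered 1, which is 23.1% of the rows counted in Ars2KD 1 and 15.7% of those in wKD 1. The libraries numbered 2 shared 325 rows, 34.9% of those in Ars2KD 2 and 19.9% of those in wKD 2. Within a group the shared rows were 126 (17.3% of Ars2KD 1 and 13.5% of Ars2KD 2) and 263 (24.6% of wKD 1 and 16.1% of wKD 2). Ars2KD 1 and wKD 2 shared 167 rows, and Ars2KD 2 and wKD 1 shared 149. Such overlap is limited by depth, as 509 of the 727 rows counted in Ars2KD 1 and 773 of the 1069 in wKD 1 had a single count. What the number stands for is not in the labels, nor whether a group's libraries come from different flies. The p-values therefore weigh the groups against the spread of these samples alone, and that spread may be technical. The follicle cell miRNA miR-989-3p had 45616 and 305180 counts in Ars2KD and 67845 and 332069 in wKD, so this ovary marker was present in all 4 libraries. Ars2 mRNA is not measured in small RNA tables, so the knockdown was not checked here.

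Very few rows held the counts. Of the 97061 rows, 3436 (3.54%) had a count in any library, against 28.96% of the rows of named families. The members had 13972 counts over the 4 libraries and the named families 588945, so these 2 percentages are not at equal depth. Counted rows numbered 727 and 931 in Ars2KD and 1069 and 1632 in wKD. The counts needed 191 and 156 rows to reach 50% of the total in Ars2KD and 277 and 208 in wKD, which is 0.161% to 0.285% of all members. To reach 90% took 615 and 608 rows in Ars2KD and 907 and 1035 in wKD. The top 10 rows of each library held 7.55% and 13.2% in Ars2KD and 8.32% and 15.3% in wKD. At the 50% mark and in the top 10 rows, such concentration was not particular to the members. Named families reached 50% of their counts with 166 and 88 rows in Ars2KD and 144 and 75 in wKD. Their top 10 rows held 13.9% and 25.4% in Ars2KD and 14.1% and 27.2% in wKD. To reach 90% the named families took more rows than the members, 2271 and 1574 in Ars2KD and 2335 and 1806 in wKD. These numbers of rows are not at equal depth either. No single row dominated: the highest held 1.42% and 2.14% of the member counts in Ars2KD and 2.16% and 2.41% in wKD.

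Many counted rows were seen once. A total of 1 count over all 4 libraries was found in 1412 rows, 41.1% of those counted, while 235 rows with at least 10 counts held 42.4% of the 13972 counts. Only 50 rows had a count in every library, and these held 16.5% of the counts, whereas 2738 rows had counts in 1 library alone and held 44.1%. The number of counted rows depends on depth. Set to the 1126 counts of the shallowest library, the expected number of counted rows was 727 and 548 in Ars2KD and 812 and 647 in wKD, so both libraries numbered 2 spread their counts over fewer rows than both numbered 1. The mean count of a counted row was 1.55 and 5.28 in Ars2KD and 1.52 and 3.86 in wKD.

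**Figure D1:**
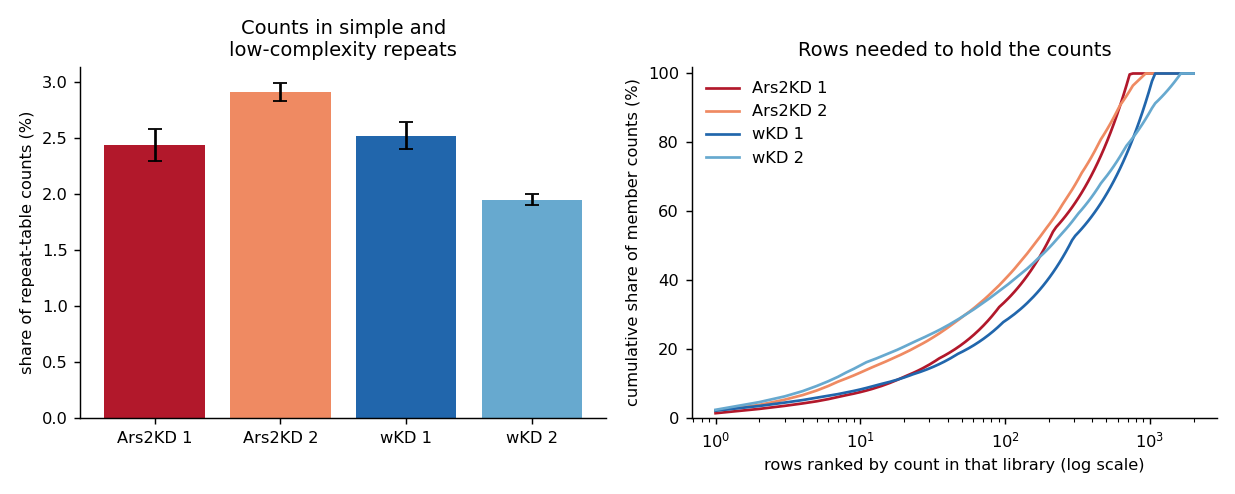
Left, bars give the share of all repeat-table counts (%) in simple and low-complexity repeats in each library, with exact 95% binomial intervals as error bars, and the Ars2KD shares of 2.44% and 2.91% enclose the wKD 1 share of 2.52%. Right, lines give the cumulative share of these counts (%) against rows ranked by count within each library on a log axis, and every line reaches 50% at 156 to 277 rows.

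By repeat unit length, units of 3 and 6 nt held the largest shares of the counts. Rows with 3 nt units held 29.6% and 24.5% of the member counts in Ars2KD and 28.6% and 21.8% in wKD, from 16.0% of the rows. Those with 6 nt units held 26.5% and 30.1% in Ars2KD and 23.7% and 27.9% in wKD, from 20.1% of the rows. Both lengths are whole multiples of the codon length. Per kb, 3 nt units had 9.56 and 9.45 CPM in Ars2KD and 9.56 and 5.64 in wKD, and 6 nt units had 7.24 and 9.81 in Ars2KD and 6.69 and 6.10 in wKD. Among all unit lengths these were the highest densities in each of the 4 libraries. At the other end, 1 nt units, which are homopolymer runs and mostly A or T, had 2.03 and 2.10 CPM per kb in Ars2KD and 1.92 and 1.50 in wKD.

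The remaining lengths lay between. Units of 2 nt took 10.1% and 5.47% of the member counts in Ars2KD and 12.4% and 6.23% in wKD, so their share was higher in the libraries numbered 1 of both groups. Units of 4 nt took 7.02% and 9.11% in Ars2KD and 8.63% and 10.7% in wKD. For 5 nt units the Ars2KD libraries had 8.35% and 9.48%, and the wKD libraries 7.83% and 8.80%. Units of 7 to 10 nt took 7.46% and 8.85% in Ars2KD and 7.46% and 9.74% in wKD. No unit was longer than 10 nt. Low-complexity rows took 9.33% and 11.1% in Ars2KD and 9.92% and 13.3% in wKD, from 10.8% of the rows. The share of rows with any count followed a similar order, with 5.53% of 3 nt and 4.91% of 6 nt rows counted, 2.06% to 3.36% of the other lengths from 2 nt up, 3.26% of low-complexity rows and 1.06% of 1 nt rows.

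**Figure D2:**
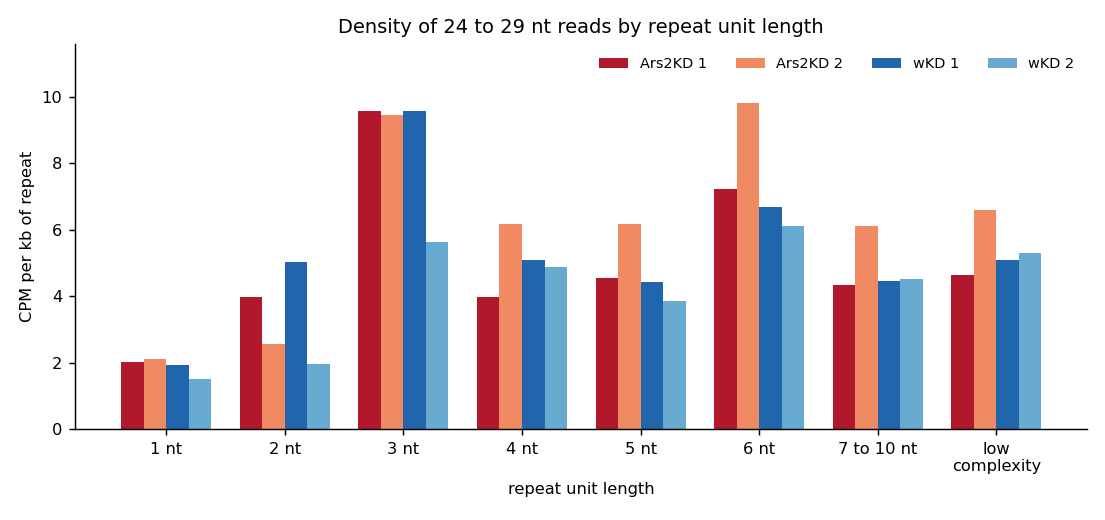
Bars give CPM per kb of annotated repeat (y axis) by repeat unit length (x axis) in each of the 4 libraries, with no error bar because each bar is 1 library. Units of 3 and 6 nt stand above the other lengths in every library, and units of 1 nt stay between 1.50 and 2.10 CPM per kb.

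The motifs were summed with all rotations and both strands of a unit as 1 motif. AGC, the unit of CAG repeats that code for polyglutamine when read in that frame, had the highest mean CPM over the 4 libraries, although GA-rich rows lay above it in Ars2KD 2. It had 173 and 337 counts in Ars2KD and 220 and 428 in wKD, from 387 counted rows of 5481. Its level was 3743 and 1993 CPM in Ars2KD and 3416 and 1324 CPM in wKD, so both libraries numbered 1 lay above both numbered 2. The AT motif split in the same way, with 1450 and 396 CPM in Ars2KD and 2205 and 334 CPM in wKD. CCG ran higher per kb than any of the other 9 most abundant motif sums, at 48.0 CPM per kb as the mean of the 4 libraries, and it had 801 and 1762 CPM in Ars2KD and 699 and 733 CPM in wKD. A single row, in a coding exon of RpL3, held 25.2% of the CCG level.

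The other abundant motif sums were as follows. GA-rich rows had 930 and 2022 CPM in Ars2KD and 808 and 1102 CPM in wKD, and A-rich rows had 1212 and 792 CPM in Ars2KD and 1475 and 1163 CPM in wKD. AC repeats, the most numerous of these motifs with 9627 rows, had 1017 and 851 CPM in Ars2KD and 963 and 644 CPM in wKD, or 2.40 CPM per kb as the mean. AAC had 1017 and 325 CPM in Ars2KD and 885 and 489 CPM in wKD. AGG had 303 and 1378 CPM in Ars2KD and 248 and 396 CPM in wKD. ATC and ACG had 541 and 644, and 260 and 905 CPM, in Ars2KD, against 497 and 486, and 326 and 489 CPM, in wKD. Of 492 motifs with units of up to 6 nt, 332 had a count.

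The units of the long heterochromatic satellites of the fly held almost none of the counts. These satellites form long blocks near centromeres and on the Y chromosome, most of which are not in the assembly. The 8 satellite units looked up numbered 995 rows and covered 87.8 kb, or 2.06% of the length of all members. Their counts were 4 and 22 in Ars2KD, against 6 and 39 in wKD libraries, or 0.355% and 0.447% of the member counts in Ars2KD against 0.370% and 0.619% in wKD. Only 18 of the 995 rows were counted. AATAG had 3 and 13 counts in the Ars2KD libraries and 3 and 21 in wKD. AATAT, the most numerous with 647 rows, had 1 and 8 in the Ars2KD libraries and 2 and 6 in wKD. AAGAG, which is known to be transcribed in fly cells, had 0 and 1 in the Ars2KD libraries and 0 and 5 in wKD. AACAC had 0 in both Ars2KD libraries and 1 and 5 in wKD, and AATAC was counted in wKD 2 alone, with 2 counts. The 29 rows of AAGAC had 0 counts in every library, and so did the 9 rows of AAGAGAG and the 4 rows of AATAGAC. A count of 0 allows up to 64.9 and 17.7 CPM in Ars2KD, or 46.6 and 9.28 CPM in wKD, at 3 counts per library. Of the 87.8 kb, 46.9 kb lie on Y or on sequences outside the main chromosomes, where no member had a count.

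By chromosome, the counts were spread roughly as the repeats are. The X chromosome, which is rich in simple repeats, held 29.0% of the rows and 35.1% and 32.5% of the member counts in Ars2KD and 34.0% and 31.8% in wKD. Arm 3R held 21.6% of the rows and 21.8% and 23.4% of the counts in Ars2KD and 22.6% and 23.1% in wKD. For 2R, with 15.3% of the rows, the Ars2KD libraries had 16.9% and 16.3%, and the wKD libraries 15.2% and 13.4%. 2L, with 14.3% of the rows, took 13.2% and 11.9% in Ars2KD and 11.3% and 12.1% in wKD. 3L, with 17.8% of the rows, took 12.7% and 15.7% in Ars2KD and 15.9% and 18.9% in wKD. Densities on these 5 arms ranged from 4.12 to 7.82 CPM per kb over the 4 libraries.

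Few or no counts fell on the remaining sequences. Chromosome 4 had 4 and 7 counts in Ars2KD and 16 and 40 in wKD over 471 rows, and 26 rows were counted. The 610 rows on Y had 0 counts in every library, and named families on Y had 1993 counts over the 4 libraries together. All 4 libraries are of ovary, a female tissue, and near-identical copies may share reads. From which copies the family counts placed on Y came was not tested. The 882 rows on other sequences also had 0 counts, as did all 7325 rows of named families there, so nothing on these sequences was counted. A count of 0 allows the same limits as for the satellites above.

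Whether a repeat had counts went with its gene context. Each row was placed by the Ensembl BDGP6 annotation, taking any overlap in the order coding exon, 5' UTR, 3' UTR, non-coding exon, annotated transposon insertion, intron. Gene exons of any kind held 24.1% of the rows but 68.7% and 59.0% of the member counts in Ars2KD and 71.5% and 58.8% in wKD. Coding exons had the highest share of counted rows, 11.9% of 8357, against 8.75% of 8300 rows in 3' UTRs, 5.46% of 4577 in 5' UTRs, 2.21% of 46663 in introns and 1.38% of 25565 between genes. The grouping by gene context was chosen after values had been seen.

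By density, coding exons and 3' UTRs were the highest contexts, and 3' UTRs lay above coding exons in both libraries numbered 1. Repeats in coding exons had 17.0 and 22.5 CPM per kb in Ars2KD and 16.3 and 13.2 in wKD. Those in 3' UTRs had 18.5 and 10.99 CPM per kb in Ars2KD and 21.6 and 10.3 in wKD, higher in the libraries numbered 1 of both groups. Introns had 2.89 and 4.71 CPM per kb in Ars2KD and 2.47 and 2.91 in wKD, and repeats between genes had 1.65 and 2.49 in Ars2KD and 1.99 and 2.10 in wKD. Non-coding exons had 9.89 and 8.70 CPM per kb in Ars2KD and 13.5 and 6.48 in wKD, where 1 row of lncRNA:CR34335 held 36.0% of the level. Annotated transposon insertions had 10.98 and 9.53 CPM per kb in Ars2KD and 11.1 and 7.57 in wKD, with 13 counted rows of 552 (2.36%), and 1 row held 50.4% of the level. The lowest value for coding exons, 13.2, was above the highest for introns, 4.71.

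**Figure D3:**
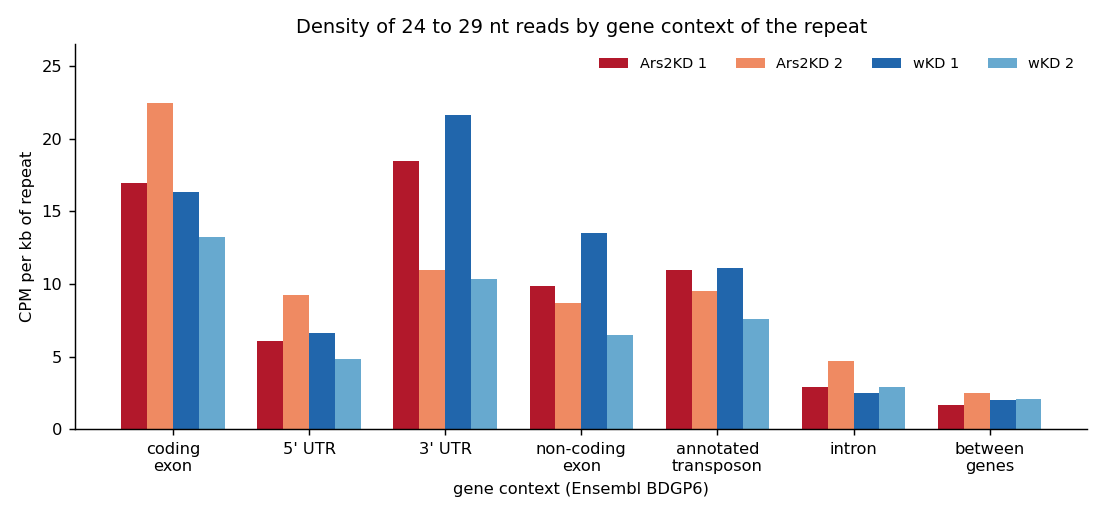
Bars give CPM per kb of annotated repeat (y axis) by the gene context of the repeat (x axis, Ensembl BDGP6 annotation) in each library, with no error bar because each bar is 1 library. Coding exons lie between 13.2 and 22.5 and introns between 2.47 and 4.71 CPM per kb.

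Unit length and gene context were not independent. Coding exons held 31.3% of the 3 nt rows and 13.8% of the 6 nt rows, but 0.185% of the 2 nt rows. Of the mean level of 3 nt rows, 67.5% lay in coding exons, and of 6 nt rows 41.1%, while 55.5% of the level of 2 nt rows lay in 3' UTRs. Within coding exons 10.96% of 3 nt rows and 13.5% of 6 nt rows had a count. Within introns 2.70% of 3 nt and 2.80% of 6 nt rows had a count, against 0.878% of 1 nt, 1.31% of 2 nt, 2.47% of 4 nt, 2.77% of 5 nt, 3.19% of 7 to 10 nt and 1.85% of low-complexity rows.

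Some genes held several counted repeats in their exons, and those given here were chosen after the values were seen. wisp, the cytoplasmic poly(A) polymerase of late oogenesis, had 8 counted rows of 10, with 23 and 25 counts in Ars2KD and 22 and 44 in wKD. More rows were counted in sqd (12 of 26) and lola (9 of 26), and aqz had 8 of 17. Ribosomal protein genes (symbols starting RpL or RpS) had 26 such rows in exons of protein-coding genes, of which 17 (65.4%) were counted, against 9.22% of the 21208 rows in exons of other protein-coding genes. Those 26 rows held 2.49% and 4.78% of the member counts in Ars2KD and 2.71% and 4.19% in wKD. tj, which encodes a Maf transcription factor of somatic gonad cells and whose 3' UTR is a known source of piRNAs in follicle cells, had 7 and 63 counts in Ars2KD and 7 and 111 in wKD over 2 counted rows. The SR splicing protein gene B52 had 6 and 34 counts in Ars2KD and 10 and 93 in wKD, and the eggshell protein gene Cp38 had 7 and 20 in Ars2KD and 2 and 86 in wKD. Altogether, 1313 of 6964 genes with an exonic repeat had a counted row, and 163 had at least 3.

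Few of the members, and few of their counts, lay beside named transposon families. Of 162 rows overlapping a named family 10 were counted, and of 2228 rows within 29 bp of one, the length of the longest read counted, 58 were. Those overlapping held 0.0888% and 0.102% of the member counts in Ars2KD and 0.370% and 0.238% in wKD, from 0.604% of the length. Those 1 to 29 bp away held 2.58% and 4.23% in Ars2KD and 2.09% and 3.20% in wKD, from 4.26% of the length. Rows over 10000 bp from any named family held 47.9% and 44.7% in Ars2KD and 47.9% and 45.8% in wKD, from 48.7% of the length. Rows 30 to 1000 bp from a named family held 14.6% and 11.3% in Ars2KD and 14.4% and 13.0% in wKD, from 9.78% of the length. Their density, 8.54 and 7.91 CPM per kb in Ars2KD and 8.74 and 6.10 in wKD, was the highest of the distance bands in each library. The sources used do not state how a read overlapping both kinds of row was assigned. Among the 10 rows of highest mean CPM, 2 lay within 29 bp: the TCTCG row in Pzl, 8 bp from a DIVER2_LTR copy, and the CGC row on 3R, 11 bp from a Gypsy8_I-int copy. Longer rows were counted more often, 9.98% of those over 100 bp and 1.77% of those up to 24 bp.

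The knockdown comparison asked whether reads over simple and low-complexity repeats differed between Ars2KD and wKD ovaries, and no sum or row passed the test. The share of counts was 2.67% ± 0.334 in Ars2KD and 2.24% ± 0.403 in wKD (SD, n = 2). The log2 ratio, as the difference of the mean log2 shares, was 0.26, with a two-sided exact permutation p of 0.667, where the smallest p that 2 against 2 libraries allow is 0.333. Simple repeats had a log2 ratio (Ars2KD over wKD) of 0.24 (SE 0.35, edgeR adjusted p 0.993) and low-complexity rows 0.05 (SE 0.35, adjusted p 0.995). Neither class was called by edgeR, DESeq2 or limma-voom (0 of 2, and 0 at an unadjusted p under 0.05), where 0.565% of the 177 features of that fit were called by edgeR. Between the libraries numbered 1 the simple repeats had -0.04 (95% interval -0.16 to 0.08), and between those numbered 2 they had 0.61 (0.55 to 0.67). These signs depend on the denominator. Per 1000000 miRNA counts, simple repeats had 1562 counts in Ars2KD 1 against 1384 in wKD 1, and 1188 in Ars2KD 2 against 1200 in wKD 2. All members had 1723 in Ars2KD 1 against 1536 in wKD 1, and 1336 in Ars2KD 2 against 1384 in wKD 2, and the log2 ratio was 0.057 on that scale. Whether the knockdown itself changes the miRNA total was not tested, so that scale is not a neutral reference. In bulk ovary RNA, a change in the share of a cell type and a change per cell cannot be told apart.

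No unit length class passed edgeR's quasi-likelihood test (0 of 8 higher and 0 lower at an adjusted p under 0.05, 0 at an unadjusted p under 0.05, and 0 with DESeq2 or limma-voom). Over the 183 features of that fit 0.546% were called. Units of 6 nt had 7596 ± 1624 CPM in Ars2KD against 5701 ± 370 in wKD (SD, n = 2). Their log2 ratio was 0.35 (SE 0.35, edgeR adjusted p 0.937), and it was 0.11 and 0.68 within numbers 1 and 2. Units of 3 nt had 7162 ± 60.8 CPM in Ars2KD against 5727 ± 2091 in wKD, with log2 ratio 0.29 (SE 0.33). The 5 nt, 1 nt and 7 to 10 nt units had log2 ratios of 0.32, 0.22 and 0.14, and 2 nt and 4 nt units had -0.11 and -0.03, the last of which was above 0 under other scalings. Each of the 8 classes had a higher ratio within number 2 than within number 1. The median over the 8 was 0.18, against -0.06 over all 183 features.

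By chromosome the picture was the same (0 of 6 arms called by edgeR, DESeq2 or limma-voom, 0 at an unadjusted p under 0.05, with 0.552% of 181 features called). 2R had 4432 ± 455 CPM in Ars2KD against 3225 ± 863 in wKD (SD, n = 2). Its log2 ratio was 0.44 (SE 0.31, edgeR adjusted p 0.745). 2L, X and 3R had 0.31, 0.26 and 0.22, and 3L had -0.04, a value above 0 under other scalings. Chromosome 4 had 64.0 ± 31.9 CPM in Ars2KD against 186 ± 88.2 in wKD. Its log2 ratio was -1.64 (SE 1.02, edgeR adjusted p 0.744), and it was -1.52 (-3.56 to 0.11) and -1.58 (-2.98 to -0.41) within numbers. The ratio lay below 0 in both pairs, but its interval included 0 in the pair numbered 1.

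Among gene contexts 0 of 7 sums were called by edgeR, DESeq2 or limma-voom and 0 had an unadjusted p under 0.05, with 0.549% of 182 features called. Repeats in introns had a log2 ratio of 0.44 (SE 0.41), in 5' UTRs 0.42 (SE 0.35), in coding exons 0.39 (SE 0.33), and in annotated transposon insertions 0.11 (SE 0.47). Those in 3' UTRs had -0.13 (SE 0.37), in non-coding exons -0.09 (SE 0.36), and between genes -0.03 (SE 0.37), the last of which was above 0 under other scalings. The adjusted p of all 7 lay between 0.860 and 0.999.

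**Figure D4:**
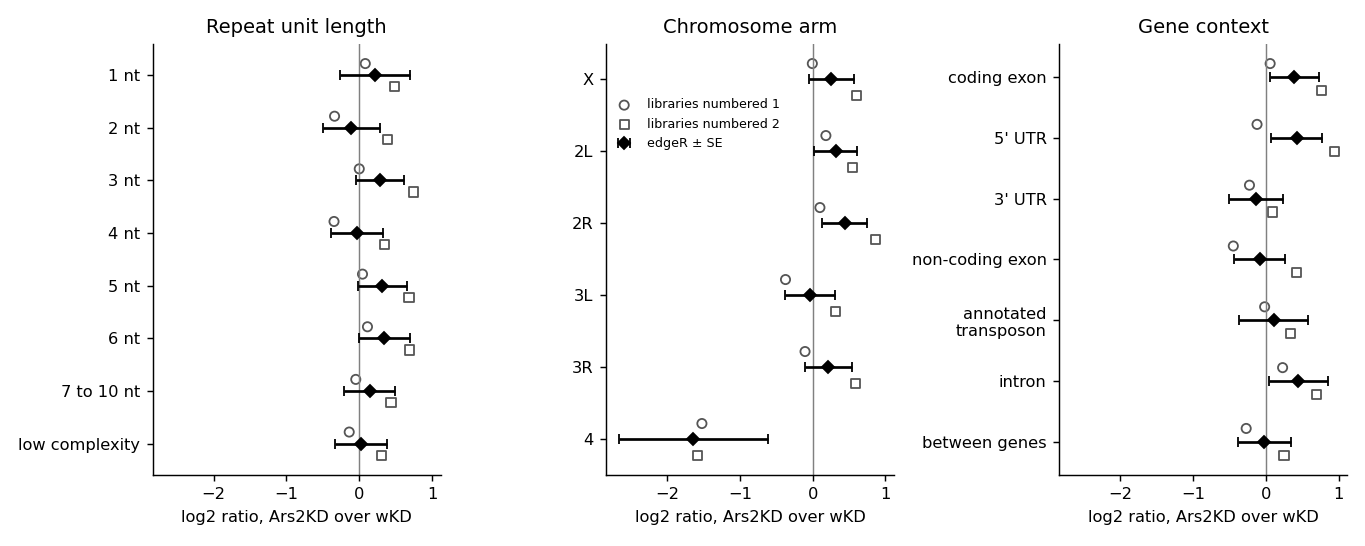
Diamonds give the edgeR log2 ratio (x axis, Ars2KD over wKD) with its standard error for counts summed by repeat unit length, chromosome arm and gene context, and open circles and squares give the same ratio of count shares within number 1 and within number 2. The squares lie to the right of the circles in every row but chromosome 4, where they are -1.58 and -1.52.

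Of 49 tested motif sums, 32 had a log2 ratio above 0, with a median of 0.21 against -0.02 over all 225 features, and 0 were called by edgeR, DESeq2 or limma-voom (1 at an unadjusted p under 0.05, with 0.444% of the 225 called). That 1 was ACCTGG, with 4 and 39 counts in Ars2KD and 1 and 6 in wKD, a log2 ratio of 3.08 (SE 1.19, adjusted p 0.738). A single row held 62.8% of its level. The next on the higher side were ATCCG, with 10 and 57 counts in Ars2KD and 6 and 31 in wKD (log2 ratio 1.48, SE 0.74), and ACTG, with 9 and 103 in Ars2KD and 11 and 50 in wKD (log2 ratio 1.31, SE 0.74). On the lower side, AAT had 15 and 9 counts in Ars2KD and 51 and 75 in wKD, a log2 ratio of -1.59 (SE 0.95, adjusted p 0.877). AAAC had 4 and 0 counts in Ars2KD and 14 and 21 in wKD, with a fitted log2 ratio of -2.16 (SE 1.78), and A-rich rows had a log2 ratio of -0.49 (SE 0.34). For AAT and AAAC each Ars2KD library had less CPM than the wKD library of its number.

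Among the 10 abundant motif sums the log2 ratios were 1.33 (SE 0.79) for AGG, 0.80 (SE 0.50) for CCG, 0.57 (SE 0.52) for GA-rich rows, 0.47 for ACG, 0.24 for AGC, 0.21 for ATC, 0.16 for AC, -0.14 for AAC, and -0.48 (SE 0.87) for AT, besides A-rich rows. AGG and CCG had 0.29 and 0.20 within number 1 but 1.80 and 1.26 within number 2.

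Only 22 members passed the filter on low counts as single rows, among 1647 rows of the whole table, and these 22 held 16.0% of the member counts. None was called by edgeR, DESeq2 or limma-voom (0 higher and 0 lower, 0 at an unadjusted p under 0.05 in edgeR and DESeq2 and 2 in limma-voom), where 0.0607% of the 1647 were called by edgeR. Over all 1647 rows DESeq2 called 7 and limma-voom 1. An unadjusted p under 0.05 was found for 68 of the 1647 in edgeR, 56 in DESeq2 and 173 in limma-voom. With no filter, 3436 member rows were tested in edgeR and 0 were called, with 21 at an unadjusted p under 0.05. Over all 15164 rows of that fit 8 were called and 229 had such a p. The groups did not overlap for 3 of the 22, all higher in Ars2KD, against 31.9% of all tested rows in either direction. Log2 ratios ran from -2.15 to 2.60, 11 of the 22 were above 0, and the median was -0.05, against -0.01 over all 1647. The edgeR adjusted p was 0.998 for each of them. For 12 of the 22 both libraries numbered 2 lay above both numbered 1, and for 5 the reverse held. This split was not counted over all 1647 rows. Same-numbered libraries resembled each other there too, with deviations from the group means correlated by 0.61, against 0.80 over the 22. The filter on low counts admits rows that are high in the libraries of 1 number alone. The split and these correlations may therefore rest in part on the filter.

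The row of highest mean CPM over the 4 libraries was the GTTTT repeat in lncRNA:CR34335, although in both libraries numbered 2 other rows, such as that in lin-28, lay above it. It had 16 and 27 counts in Ars2KD and 35 and 63 in wKD, or 346 and 160 CPM against 544 and 195 CPM, a log2 ratio of -0.60 (SE 0.75). Each Ars2KD library lay below the wKD library of its number, but the groups overlapped. The GCC row in RpL3, a ribosomal protein gene, had 8 and 65 counts in Ars2KD and 16 and 65 in wKD (log2 ratio 0.33, SE 0.73).

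Counts of other abundant rows came almost wholly from the libraries numbered 2. The ATGA row in an intron of lin-28, which encodes an RNA-binding protein known from worms and mammals as a regulator of let-7 miRNAs, had 0 and 83 counts in Ars2KD and 0 and 140 in wKD (log2 ratio 0.10, SE 1.74). The CCACGA row in the ribosomal protein gene RpS2 had 2 and 75 counts in Ars2KD and 7 and 81 in wKD (log2 ratio 0.43, SE 1.06). The TTGTCT row between genes on 3L, 393 bp from a ROOA_I-int copy, had 1 and 66 counts in Ars2KD and 4 and 97 in wKD (log2 ratio 0.15, SE 1.22). In each of these rows both libraries numbered 2 had more CPM than both numbered 1. As the libraries numbered 2 are deeper, raw counts overstate this split. By level, the RpS2 row had 43.3 and 443 CPM in Ars2KD and 109 and 251 CPM in wKD.

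The TA row in the 3' UTR of Myc, a growth-promoting transcription factor, showed the opposite split. It had 14 and 11 counts in Ars2KD and 22 and 20 in wKD, which is 303 and 65.0 CPM against 342 and 61.9 CPM (log2 ratio -0.19, SE 1.03). The low-complexity GA-rich row in the 3' UTR of tj (chr2L:19466957-19467011) had 7 and 39 counts in Ars2KD and 7 and 105 in wKD, a log2 ratio of -0.31 (SE 0.83). The one in a coding exon of RpL10Ab, a ribosomal protein gene (chr3L:11823766-11823802), had 5 and 64 counts in Ars2KD and 8 and 58 in wKD, a log2 ratio of 0.67 (SE 0.85).

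**Figure D5:**
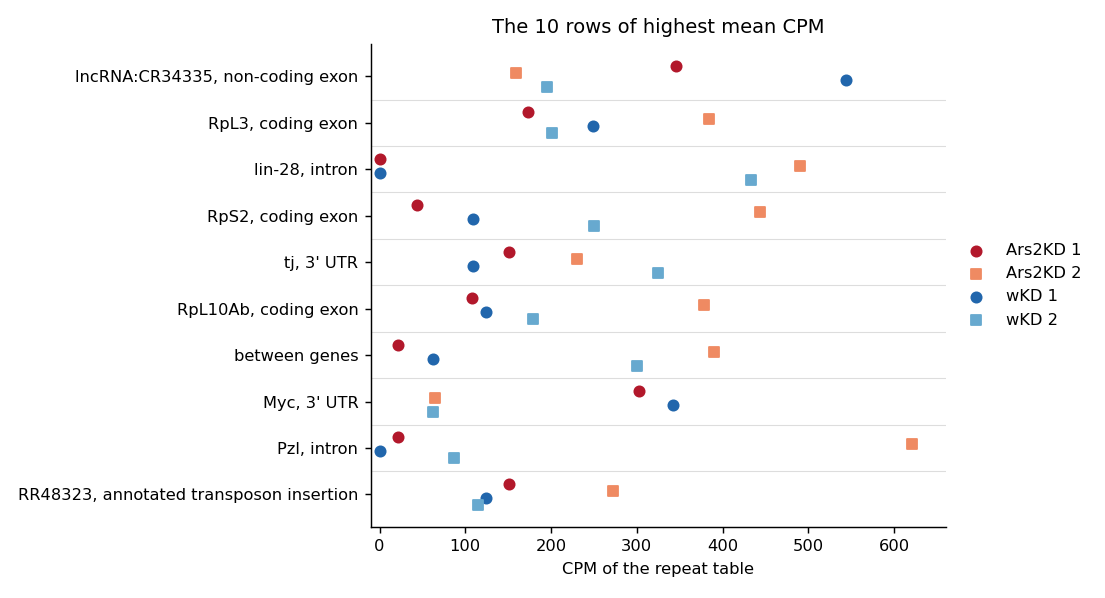
Points give the CPM of the repeat table (x axis) in each of the 4 libraries for the 10 rows of highest mean CPM (y axis, named by gene and gene context). The row in lin-28 is at 0 in both libraries numbered 1 and at 433 to 491 CPM in those numbered 2, while the row in Myc is at 303 to 342 CPM in those numbered 1 and at 61.9 to 65.0 CPM in those numbered 2.

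Among rows higher in Ars2KD, the lowest p belonged to the CCA row in a coding exon of Hrb87F, which encodes an RNA-binding protein of the hnRNP group (chr3R:13658753-13658778). It had 5 and 21 counts in Ars2KD and 3 and 2 in wKD, a log2 ratio of 2.46 (SE 1.38, unadjusted p 0.117 in edgeR), with 1.22 (-1.15 to 3.90) and 4.33 (2.29 to 7.46) within numbers. The TCTCG row in an intron of Pzl, a gene for a Piezo-like channel protein, had 1 and 105 counts in Ars2KD and 0 and 28 in wKD, a log2 ratio of 2.60 (SE 1.52). Its level rested on Ars2KD 2, at 621 CPM, against 86.6 CPM in wKD 2. The AACCCGA row shared by introns of bi, a T-box transcription factor gene, and lncRNA:CR32773 (chrX:4471712-4471795) had 4 and 23 counts in Ars2KD and 3 and 4 in wKD, a log2 ratio of 2.14 (SE 1.26). The CGC row beside the Gypsy8_I-int copy on 3R had 7 and 46 counts in Ars2KD and 8 and 37 in wKD, a log2 ratio of 0.82 (SE 0.73). These and the RpL10Ab row above were the 5 of lowest p.

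On the lower side, the A-rich row in an intron of CG4238 (chr2L:2013136-2013168) had 1 and 15 counts in Ars2KD and 1 and 152 in wKD. Its log2 ratio was -2.15 (SE 1.36), and it was 0.48 (-5.82 to 6.77) and -2.41 (-3.28 to -1.64) within numbers. A 4 nt repeat between genes (chr2R:7439690-7439739) had 1 and 19 counts in Ars2KD and 5 and 86 in wKD, a log2 ratio of -1.32 (SE 1.03). The TTCCCAG row in an intron of Gmap, which encodes a Golgi protein (chrX:15491345-15491392), had 0 and 15 counts in Ars2KD and 1 and 94 in wKD, a log2 ratio of -1.69 (SE 1.45). The TGTAATG row in lncRNA:CR46253 (chr2L:23239474-23239519) had 5 and 1 counts in Ars2KD and 9 and 24 in wKD, a log2 ratio of -1.26 (SE 1.40). The CR34335 row completed the 5. In the CG4238, 2R and Gmap rows wKD 2 was the highest of the 4 libraries, and the counts in libraries numbered 1 were 5 or fewer.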

How the data were processed

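Per the submitters' processing notes, reads were handled with FastQC, Trimmomatic, Bowtie2 and featureCounts on dm6. Their versions and settings, including how multi-mapping reads and strand were treated, are not given in the sources used here. The authors deposited raw counts per miRNA locus and, per the file headers, counts of 24 to 29 nt reads per repeat copy. The table does not separate strands, and near-identical repeats may share reads. Number of table columns not used: 0.

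Members and lists were chosen with earlier results of these data known. Tests used edgeR 4.0.16 in R 4.3.3 (quasi-likelihood, TMM, filterByExpr, Benjamini-Hochberg adjustment over all features, threshold 0.05), fitted on all rows, or on named families with members summed by class, unit length, motif, chromosome or gene context. CPM values are not TMM-scaled. Intervals of ratios are exact 95% conditional binomial ones. Named were the 10 rows and motif sums of highest mean CPM, the 5 rows (mean of at least 10 CPM) or 3 motif sums of lowest p in each direction, and every other sum. Genes or sums outside this rule were picked with their values in view, as stated beside them. DESeq2 1.42.0, limma 3.58.1 (voom), other scalings, the miRNA total as denominator, no filter, left-out libraries and rows, and a replicate block were alternatives. The tests were also run on simulated data with a single fixed dispersion and large changes only. That run does not cover the spread between these libraries or the smaller ratios seen here. A chi-square comparison of family counts found no library repeating another. Python 3.11.15, pandas 2.3.3 and scipy 1.17.1 were used.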

Additional observations from a re-analysis of the deposited data

How the results depend on the processing

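Of the 54 log2 ratios of sums and rows, 25 kept their sign under every alternative run and 29 turned in at least 1, of which 21 turned only when a library was left out. Outside left-out libraries, units of 4 nt turned to 0.052 under DESeq2 size factors, 0.042 under table totals and 0.052 in DESeq2, and members on 3L to 0.016, 0.0019 and 0.017. Members between genes turned to 0.032, 0.025 and 0.032 and, without rows near a named family, to 0.021. Low-complexity rows in the unit length fit turned to -0.0041 with limma-voom, against 0.023 in the class fit. The TTGTCT row on 3L turned to -0.033 with no filter and -0.035 under the replicate block, the lin-28 row to -0.11 with no filter, members in annotated transposon insertions to -0.12 without rows near a named family, and those in non-coding exons to 0.16 without the top row, which lies in 1 of them. In the other cases the cause was not tested.

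With 1 library left out, simple repeats had log2 ratios of 0.025 to 0.48, low-complexity rows -0.34 to 0.40 (-0.33 to 0.40 in the unit length fit), and the log2 ratio of the share 0.079 to 0.45. Taken per miRNA count, the ratio for all members was 0.057, against 0.26 per repeat-table count. Unit lengths that turned were 2 nt (-0.50 to 0.50), 4 nt (-0.47 to 0.38), 5 nt (-0.0040 to 0.66) and 7 to 10 nt (-0.22 to 0.51). Arms that turned were 3L (-0.46 to 0.34) and 3R (-0.077 to 0.52). Contexts were 3' UTR (-0.44 to 0.27), 5' UTR (-0.039 to 0.81), between genes (-0.48 to 0.36), intron (-0.076 to 0.88) and non-coding exon (-0.40 to 0.31). Motif sums were AAC (-1.11 to 0.47), ACG (-0.88 to 1.05), AGC (-0.26 to 0.80), AGG (-0.33 to 1.97), AT (-1.62 to 1.11), ATC (-0.035 to 0.41), CCG (-0.020 to 1.19) and GA-rich (-0.25 to 1.06). Rows were those in tj (-1.05 to 0.95), RpS2 (-2.38 to 1.41), RpL10Ab (-0.78 to 1.20), lin-28 (-8.18 to 7.69), RpL3 (-0.59 to 0.74), Myc (-1.48 to 1.07) and the TTGTCT row (-3.43 to 1.99).

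Counts of called members stayed at 0 in each direction for every fit and alternative except the replicate block, which called 1 row higher (Pzl, log2 ratio 2.79, adjusted p 0.0230) and 1 motif sum higher (AGG, 1.22, adjusted p 0.0485). Deviations from the group means correlated by 0.80 between same-numbered libraries over the 22 tested rows. The filter that those rows passed also admits rows high in the libraries of 1 number alone. The correlation was 0.61 over all 1647 tested rows and 0.69 over the 183 features of the unit length fit. There are only 2 pairs, and what same-numbered libraries have in common besides the number is not in the labels. Ranking rows by pooled count gave 362 rows for 50% of the counts, against 468 by mean CPM. At these depths only 22 of 97061 rows passed the filter on low counts.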
